A study of Mus musculus with 15 samples.

Results

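The 6 genes Chat, Slc5a7, Slc44a1, Ache, Bche and Prima1, which make, take up and break down acetylcholine, the transmitter of motor neurons, or anchor its esterases, were followed through 15 RNA-seq libraries of mouse motor neurons. They were chosen by symbol, and all 6 were found among the 36814 genes of the table. The libraries came from wild-type mice at postnatal day 6, with 3 for each of 5 hind-limb motor pools, a pool being the neurons that supply 1 muscle or muscle group. The pools are named TA (tibialis anterior), EDL (extensor digitorum longus), PL (peroneus longus), GS (gastrocnemius) and IF (intrinsic foot muscles). Neurons were marked by injecting 0.1% of the fluorescent tracer CTB-Alexa 555 into the muscle at day 4 and were cut out by laser from spinal cord sections of 12 µm. Each library held 30 to 40 cells from 2 to 5 pooled animals, so that differences between single cells and between animals are averaged within it. No group carried a transgene, deletion or drug, and the comparison is between pools alone.

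Choline acetyltransferase (Chat) joins choline and acetyl-CoA to acetylcholine in the nerve terminal. After release, the transmitter is split in the synaptic cleft by acetylcholinesterase (Ache), and the freed choline is brought back into the terminal by the high-affinity choline transporter (Slc5a7), the step usually held to limit the rate of synthesis. Slc44a1 is a more widely expressed choline transporter that feeds membrane phospholipid synthesis. Butyrylcholinesterase (Bche) is a second esterase of broader substrate range that also splits acetylcholine, and Prima1 is the membrane protein that anchors cholinesterase tetramers at the surface of neurons. The vesicular carrier of acetylcholine, Slc18a3, was not analysed here.

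In mm9, the build of the deposited table, the genes lie at the following places, each span covering exons and introns. Chat (ENSMUSG00000021919) spans chromosome 14, 33221389 to 33279096, on the minus strand. Slc5a7 (ENSMUSG00000023945) spans chromosome 17, 54412919 to 54438360, minus strand. Slc44a1 (ENSMUSG00000028412) spans chromosome 4, 53453285 to 53635351, plus strand. Ache (ENSMUSG00000023328) spans chromosome 5, 137728747 to 137735695, plus strand. Bche (ENSMUSG00000027792) spans chromosome 3, 73439730 to 73512338, minus strand. Prima1 (ENSMUSG00000041669) spans chromosome 12, 104435118 to 104480361, minus strand. A gene model on the opposite strand, AC154412.2, shares 868 bases with the span of Chat, and 1700060J05Rik lies in the same way over part of Slc44a1. The library kit did not mark strand, so reads in the shared stretches cannot be told apart. AC154412.2 itself had between 14.8 ± 9.56 (PL) and 25.7 ± 27.1 (EDL) CPM, a unit explained below.

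The sequences before the start sites of Chat, Slc5a7 and Bche are shown because these genes had the lowest p-values of the 6 for a difference among the pools, described below. Each is the 250 bases 5′ of the start from RefSeq on GRCm38.p6, a later build than that of the table, read 5′ to 3′ on the gene's own strand (minus for all of them). The windows are chr14:32465910-32466159 for Chat, chr17:54299035-54299284 for Slc5a7 and chr3:73708416-73708665 for Bche. Capitals mark matches on either strand to 5 short motifs, none of which overlap between kinds here. The TATA motif was searched as TATAAA. The GC box was searched as GGGCGG and the E-box as CANNTG. The homeodomain core was searched as TAATTA, and the CCAAT box by the letters of its name.
Chat: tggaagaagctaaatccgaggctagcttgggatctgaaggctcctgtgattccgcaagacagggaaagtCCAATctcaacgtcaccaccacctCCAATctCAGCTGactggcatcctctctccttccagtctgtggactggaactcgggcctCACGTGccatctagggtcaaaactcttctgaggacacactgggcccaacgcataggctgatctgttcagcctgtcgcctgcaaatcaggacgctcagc
Slc5a7: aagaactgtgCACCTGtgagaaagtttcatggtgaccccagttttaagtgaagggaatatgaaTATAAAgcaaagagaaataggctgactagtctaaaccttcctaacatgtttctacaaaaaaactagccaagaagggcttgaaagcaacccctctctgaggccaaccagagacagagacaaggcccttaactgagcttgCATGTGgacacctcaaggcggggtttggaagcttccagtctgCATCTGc
Bche: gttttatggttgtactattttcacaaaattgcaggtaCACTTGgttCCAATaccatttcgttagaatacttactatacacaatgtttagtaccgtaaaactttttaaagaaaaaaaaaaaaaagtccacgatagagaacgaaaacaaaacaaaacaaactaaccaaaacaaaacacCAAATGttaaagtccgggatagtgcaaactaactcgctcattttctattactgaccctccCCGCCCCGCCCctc
The Chat window held 2 CCAAT boxes and 2 E-boxes, and that of Bche held 1 CCAAT box, 2 GC boxes that share a base, and 2 E-boxes. The Slc5a7 window held 1 TATA motif and 3 E-boxes. Among 32851 RefSeq windows of the same length, 12.4% held a TATA motif, 33.8% a CCAAT box, 32.7% a GC box, 66.2% an E-box and 4.84% a homeodomain core. Chat and Bche had 8 CpG dinucleotides each and Slc5a7 had 1, against a median of 6 over all windows. The windows of Ache, Prima1 and Slc44a1 were richer in CpG, with 25, 29 and 38. These matches describe the letters only.

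Total counts per library ran from 4417114 (PL replicate 2) to 8488368 (PL replicate 1). PL replicates 2 and 3 stood apart, with 11019 and 10548 genes detected against 13092 to 17321 in the other 13 libraries. Results that rest on the PL pool are therefore given with and without these libraries. Summed motor neuron markers reached 18549 to 75807 CPM, although Isl1 had no read in TA or PL. Markers of glia, vessels and interneurons were also read, and their sums are given beside the results they move with. Fewer cells of a type and less RNA per cell cannot be told apart in such pooled samples.

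Levels are given as CPM: reads of the gene divided by the TMM-scaled size of the library, times 1e+06. Errors of means are the SD over 3 libraries. Genes are compared with each other only on CPM per kb of transcript. On that scale Slc5a7 was the highest of the 6, with a mean of 214 over the 15 libraries and a place above 98.0% to 99.5% of the 14340 tested genes in every library. Chat followed with 64.5, then Ache with 27.1 and Slc44a1 with 16.9. Prima1 with 5.24 and Bche with 3.49 were the lowest. The mRNA of the choline transporter was thus more abundant per length than that of the synthetic enzyme in all 15 libraries. Between pools, the highest mean was 4.86 times the lowest for Chat, 2.21 times for Slc5a7, 2.20 times for Slc44a1 and 1.88 times for Ache. Bche ranged more widely, from 0.614 CPM in PL to 84.2 in IF. No such ratio is given for Bche and Prima1, since only PL replicate 1 had a read of either in that pool.

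**Figure D1:**
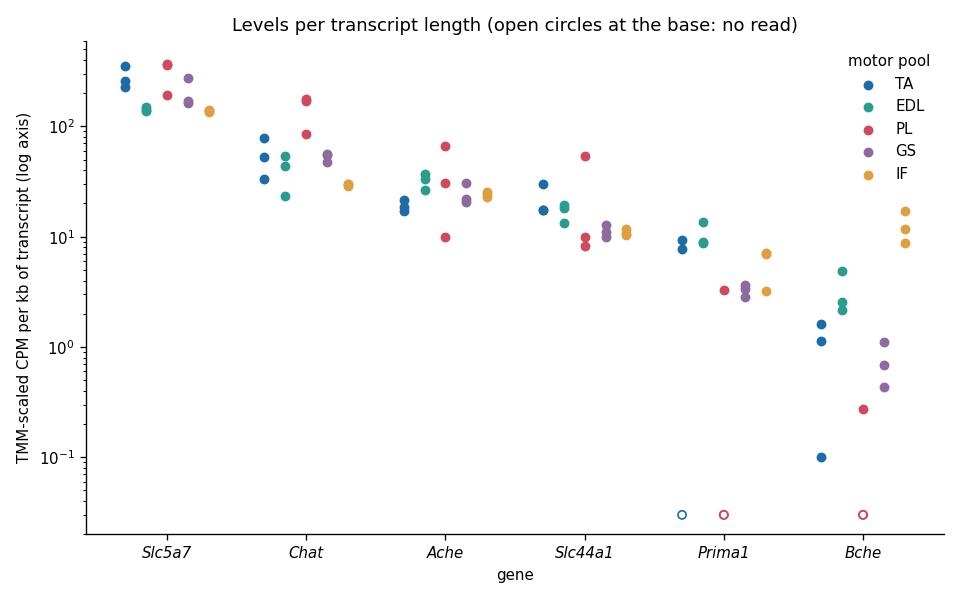
Level of each gene per kb of transcript on a log axis, 1 point per library, coloured by pool; open circles at the base stand for libraries with no read. Slc5a7 lies above Chat, and Bche has the widest range, with the IF libraries at its top and PL at its base.

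Of the 6 genes, 2, Chat and Bche, differed among the 5 pools in edgeR's quasi-likelihood F-test (adjusted p = 0.0245 and 0.0291). Of all 14340 tested genes, 1.31% did so. Slc5a7 missed the threshold of 0.05 with an adjusted p of 0.0743 in edgeR. For Slc44a1, Ache and Prima1 the edgeR values were 0.556, 0.767 and 0.792. Set against the mean of the other 4 pools, Chat was higher in PL, and Bche was higher in IF and lower in PL. No member was called in TA, EDL or GS, where 0.418%, 0.0976% and 0.126% of all genes were. In PL 4.87% of all genes were called, 646 higher and 52 lower, and in IF 1.1%. The surplus of higher genes in PL depended on the setting: it was 1003 against 714 with DESeq2 and 1608 against 1602 without PL replicate 1. Of the 60 tests of 6 genes in 10 pairs of pools, 2 passed, both between PL and IF.

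**Figure D2:**
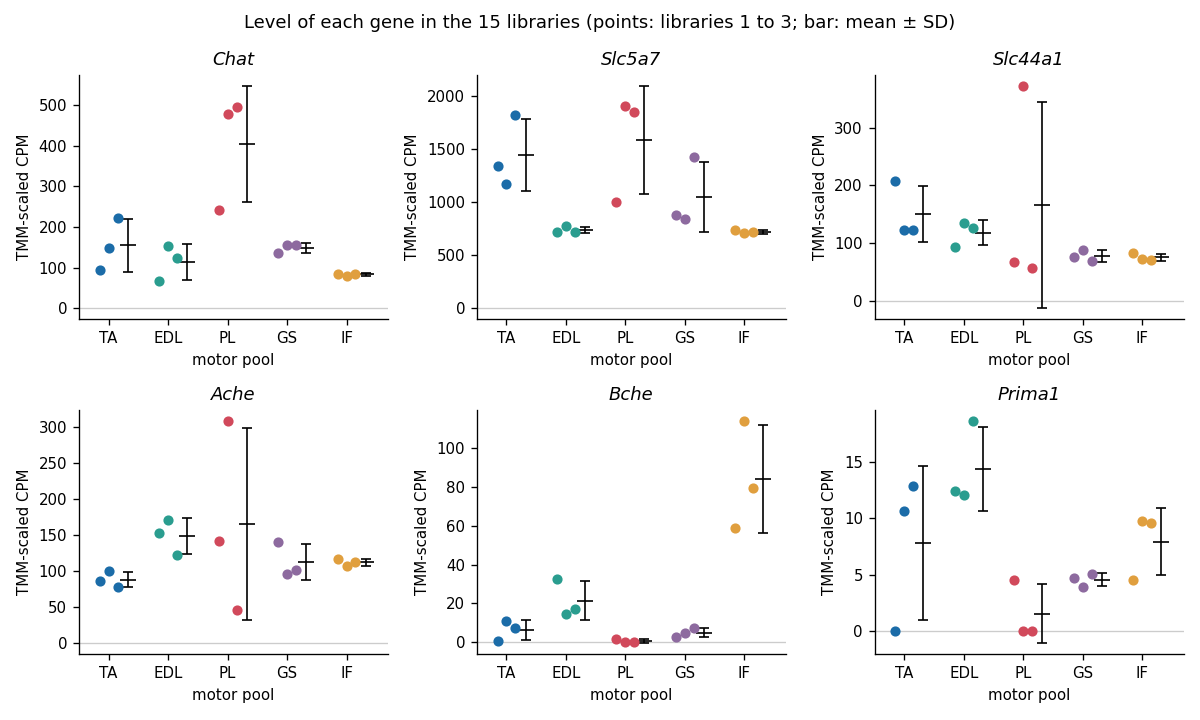
TMM-scaled CPM of the 6 genes in the 15 libraries, 1 panel per gene; points are libraries and bars are the mean ± SD of 3. Chat in PL and Bche in IF lie wholly above the other 12 libraries, while Ache and Slc44a1 in PL are spread by 1 high library.

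Chat, the enzyme of synthesis, was highest in the peroneus longus pool. It stood at 241, 478.5 and 495 CPM in the 3 PL libraries. The TA libraries had 93.1, 149.5 and 222, the EDL libraries 66.2, 153 and 123, and the GS libraries 135, 156 and 156. In IF the values were 84.3, 80.3 and 85.2. Every PL library lay above all 12 others, and the IF libraries were low and close together.

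The pool means of Chat ran in the order PL (405 ± 142), TA (154.9 ± 64.7), GS (149 ± 12.2), EDL (114 ± 44.1) and IF (83.3 ± 2.59). PL exceeded the other 4 pools by a log2 fold change of 1.73 ± 0.291 (SE; edgeR, adjusted p = 0.00304). PL exceeded IF by 2.28 ± 0.427 (edgeR, adjusted p = 0.0141). No 2 neighbours in the order differed in edgeR, although the libraries of PL and TA did not overlap (log2 fold change 1.39 ± 0.415, adjusted p = 0.133). The fall in IF against the rest, a log2 fold change of -1.12 ± 0.349, did not pass (edgeR, adjusted p = 0.175).

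The call in PL held without PL replicate 2 alone (log2 fold change 1.59 ± 0.325, edgeR adjusted p = 0.00977). It also held without PL replicate 3 alone (1.56 ± 0.322, edgeR adjusted p = 0.0117). Without both, PL replicate 1 was the lone PL library, assumed to vary as the other pools do. The log2 fold change was then 0.98 ± 0.410, and PL against IF was 1.51 ± 0.467. A pool of 1 library leaves the test little power, so only sizes are given for that fit. That lone library was nonetheless above the 12 libraries of the other pools. In the authors' RPKM, which divides by reads and length with no TMM step, PL had 44.0, 57.2 and 55.5 and the 12 other libraries 12.7 to 33.1. PL replicate 2 carried the highest sums of oligodendrocyte markers (2482 CPM over 12 genes, 11 with a read) and of endothelial markers (684 CPM over 8 genes, 3 with a read). Inhibitory interneuron markers summed to 254 and 364 CPM in PL replicates 2 and 3 (3 and 2 of 5 genes with a read), against 21.3 in PL replicate 1. Excitatory interneuron markers went the other way, with 9.90 and 10.4 CPM in PL replicates 2 and 3 against 167 in PL replicate 1. In PL replicate 1 the oligodendrocyte sum was 445 and the endothelial sum 44.3, both within the range of the other pools. Their part in the level of Chat was not tested.

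Slc5a7, the choline transporter of cholinergic terminals, was abundant in every pool. Its level was 1336, 1173 and 1817 CPM in TA and 723, 774 and 716 in EDL. PL had 1003, 1906 and 1849.5, GS had 875, 842 and 1427, and IF had 735, 706 and 714. EDL and IF were the low and even pools, while the other pools each held at least 1 library well above them.

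Pool means of Slc5a7 fell in the order PL (1586 ± 506), TA (1442 ± 335), GS (1048 ± 329), EDL (738 ± 31.6) and IF (718 ± 14.9). The PL excess over the rest was a log2 fold change of 0.75 ± 0.215, which just missed the threshold (edgeR, adjusted p = 0.0519, 95% interval 0.325 to 1.17). PL against IF gave 1.14 ± 0.289 (edgeR, adjusted p = 0.0677). Without PL replicates 2 and 3 the excess over the rest was 0.08 ± 0.294. GS and EDL were neighbours whose libraries did not overlap, yet their difference was not called (edgeR, adjusted p = 1).

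Slc44a1, the general choline transporter, had 207, 122 and 123 CPM in TA and 93.4, 136 and 126 in EDL. It had 76.3, 88.4 and 68.4 CPM in GS and 82.3, 73.0 and 71.3 in IF. In PL the values were 68.3, 372 and 57.4, so that PL replicate 2 alone carried the pool mean of 166 ± 179. Every TA and EDL library lay above every GS and IF library. No contrast of Slc44a1 was called, and the step from EDL to GS, a log2 fold change of 0.61 ± 0.560, had an adjusted p of 1 in edgeR.

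**Figure D3:**
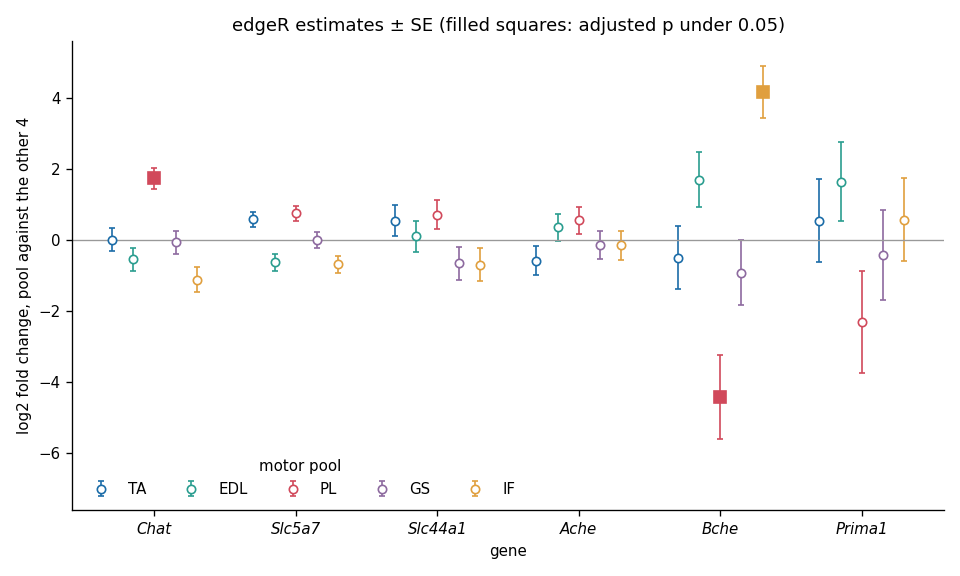
edgeR log2 fold change of each gene, 1 pool set against the 4 that remain, with standard errors; filled squares mark an adjusted p under 0.05. The 3 squares are Chat in PL and Bche in PL and IF, and the errors of Bche and Prima1 are the widest.

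Ache, the main esterase, had 85.8, 99.5 and 78.4 CPM in TA, 153, 171 and 122 in EDL, and 141, 95.2 and 101 in GS. IF had 116, 107 and 113. PL had 141, 308 and 46.1, so that 1 pool held both the highest and the lowest library. The pool means, from 87.9 ± 10.7 in TA to 165 ± 133 in PL, did not differ in any contrast. TA was the pool with the lowest mean, and its libraries lay just below those of IF.

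Bche, the second esterase, had its highest level in the foot pool. It stood at 59.0, 114 and 79.6 CPM in IF, against 32.8, 14.5 and 17.3 in EDL. TA had 0.678, 10.8 and 7.56, and GS had 2.92, 4.60 and 7.51. In PL it was read only in replicate 1, at 1.84 CPM from 17 reads. PL replicates 2 and 3 had no read, which allows up to 0.958 and 0.662 CPM (3 counts, counting error only). All 3 IF libraries lay above the 12 others, and the EDL libraries came next, above TA and GS. PL had the lowest mean, although TA replicate 1 lay below PL replicate 1.

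The means of Bche were 84.2 ± 27.9 in IF, 21.5 ± 9.85 in EDL, 6.36 ± 5.18 in TA, 5.01 ± 2.32 in GS and 0.614 ± 1.06 in PL. IF exceeded the other 4 pools by a log2 fold change of 4.15 ± 0.724 (edgeR, adjusted p = 0.00687). That is a difference of mean log levels, which the near absence of reads in PL makes larger. The single step from IF to EDL was 1.97 ± 1.09 and was not called (edgeR, adjusted p = 1). With only those 2 pools fitted, EDL against IF was -1.98 ± 0.402 and was called (edgeR, adjusted p = 0.0377). PL lay below the rest by a log2 fold change of -4.41 ± 1.17 (edgeR, adjusted p = 0.0353) and below IF by -6.85 ± 1.38 (adjusted p = 0.0221). The size of both is uncertain, since without PL replicate 1 the pool had no read and the fitted values became -9.70 and -12.16, sizes set by the prior count that edgeR adds. In its percentile per kb among tested genes, Bche stood between 65.3 and 79.0 in the IF libraries, against at most 49.4 in any other library.

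The excess of Bche in IF did not need the PL libraries that stood apart: without them it was 3.84 ± 0.622 (edgeR, adjusted p = 0.00394). Without IF replicate 2 it was 3.91 ± 0.890 and without IF replicate 3 it was 4.23 ± 0.864, about as large but no longer called (edgeR, adjusted p = 0.0929 and 0.0516). With PL replicate 1 as the lone PL library, the log2 fold change of Bche in PL was -3.07 ± 1.23. PL against IF was then -5.52 ± 1.46. IF had the lowest marker sums of oligodendrocytes, 235 to 248 CPM against 309 to 2482 elsewhere. It also had the lowest of astrocytes, 2399 to 2740 against 2828 to 5369. Endothelial markers (24.6 to 33.1 CPM), fibroblast markers (31.8 to 54.4) and microglial markers (19.1 to 52.8) lay within the ranges of the other pools. So did excitatory interneuron markers (31.6 to 40.9) and motor neuron markers (20052 to 26695). Inhibitory interneuron markers summed to 3.56 to 38.0 CPM in IF, against 21.3 to 364 elsewhere. The part of these cells in the level of Bche was not tested.

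Prima1, the cholinesterase anchor, was low throughout, with 811 reads in all. Its level was 12.4, 12.1 and 18.7 CPM in EDL, 4.68, 3.92 and 5.06 in GS, and 4.48, 9.75 and 9.55 in IF. TA had 10.7 and 12.8 CPM in replicates 2 and 3 and no read in replicate 1 (up to 0.509 CPM). PL had 4.55 CPM in replicate 1 and no read in replicates 2 and 3. No contrast was called. EDL (14.4 ± 3.72) and IF (7.93 ± 2.99) were neighbours whose libraries did not overlap, with a log2 fold change of 0.86 ± 1.54 between them.

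Ratios of 2 genes within a library do not depend on how libraries are scaled, and they are given as a description. Chat per Slc5a7, both per kb, was 0.443, 0.462 and 0.493 in the PL libraries, a mean of 0.466 ± 0.0254. The other 12 libraries ran from 0.128 to 0.364, with pool means of 0.283 ± 0.102 in EDL, 0.275 ± 0.0697 in GS, 0.214 ± 0.00543 in IF and 0.196 ± 0.0589 in TA. All 3 PL libraries, the deep replicate 1 among them, were above every other library. In IF, Bche made up 25.8%, 42.4% and 32.6% of the summed levels per kb of the esterases Ache and Bche. In EDL its share was 12.8%, 5.50% and 8.86%, and in the remaining 9 libraries it was at most 6.95%. In all 15 libraries Ache was thus the more abundant esterase mRNA per length.

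**Figure D4:**
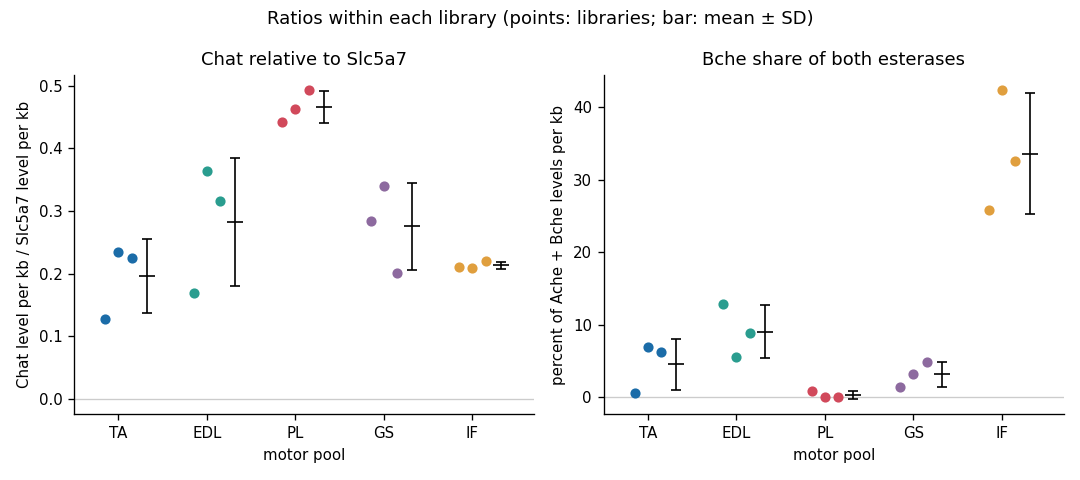
Left, the level of Chat per kb divided by that of Slc5a7 in each library; right, Bche as a percent of Ache plus Bche per kb; bars are the mean ± SD of 3 libraries. The 3 PL libraries lie highest on the left (0.443 to 0.493), and the 3 IF libraries lie highest on the right (25.8% to 42.4%).

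Across the 15 libraries, pool differences included, some members rose together and others ran in opposite directions. Over 15 pairs of members, 5 passed a two-sided permutation test of Pearson's r on log2(CPM + 1) with Benjamini-Hochberg adjustment. Chat rose with Slc5a7 (r = 0.778, p = 0.00064, adjusted p = 0.0045; rho = 0.811, p = 0.00043, by permutation). Chat ran against Bche (r = -0.777, p = 0.00072, adjusted p = 0.0045; rho = -0.774, p = 0.00116, by permutation). Slc5a7 also ran against Bche (r = -0.756, permutation p = 0.00139, adjusted p = 0.00521; rho = -0.853, p = 0.00013). Bche went with its anchor Prima1 (r = 0.757, permutation p = 0.0009, adjusted p = 0.0045; rho = 0.660, p = 0.00859). For Slc5a7 and Prima1 the permutation p of r = -0.623 was 0.0128 (adjusted 0.0383), while that of rho = -0.473 was 0.0771.

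These relations mix differences between pools with those within them. With each pool centred on its mean, r was -0.03 for Chat and Bche and -0.17 for Slc5a7 and Bche (permutation p = 0.904 and 0.548). For Chat and Slc5a7 the centred r was 0.605 (permutation p = 0.0172, adjusted p = 0.0860). Bche and Prima1 had a centred r of 0.874 (permutation p = 7e-05, adjusted p = 0.00105), and TA replicate 1 was the TA library lowest in both. A further setting left out the 2 libraries farthest from the median, which differed by pair. There r was 0.580 for Chat and Slc5a7 and -0.615 for Chat and Bche (permutation test, adjusted p = 0.0970 and 0.0899). Both values of r were the same as without PL replicates 2 and 3. For Bche and Prima1 r was 0.798 (permutation test, adjusted p = 0.0132). Prima1 and Slc44a1 also passed in that setting, with the sign reversed (r = 0.732, permutation test, adjusted p = 0.0132). Over all 15 libraries the r of Prima1 and Slc44a1 was -0.316. It was -0.450 centred on pool means and -0.239 without PL replicates 2 and 3. Leaving out PL replicates 2 and 3, which had no read of Bche or Prima1, gave r = 0.584 for those genes (permutation p = 0.0307, adjusted p = 0.115). No pair passed by r without those libraries, and 1 did by rho, Slc5a7 with Bche (rho = -0.775, permutation test, adjusted p = 0.0402).

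The genes closest to each member in pattern were found by Pearson's r over the same 15 libraries, as a description. Chat was nearest to Atp6v0a2 (r = 0.957), a subunit of the proton pump that acidifies vesicles and endosomes, then to Bcat1 (0.925), a branched-chain amino acid transaminase, and Endod1 (0.915). Atp6v0a2 averaged 130.4 CPM in PL and 23.1 to 52.1 in the other pools. Slc5a7 was nearest to Limch1 (0.902), Pdzd8 (0.900) and Rimkla (0.896). Bche was nearest to Batf3 (0.885), a leucine zipper transcription factor, Eef1a1 (0.876), a translation elongation factor, and St6galnac3 (0.869), a sialyltransferase. Batf3 and St6galnac3 were themselves low, at no more than 4.62 and 6.29 CPM in any pool mean. Ache was nearest to BC031181 (0.942), Fam174a (0.934) and Rcor1 (0.917), and Rcor1 was high only in PL replicate 2, at 740 CPM against 0.662 to 64.3 elsewhere. Prima1 was nearest to Zbtb46 (0.927), Irak1 (0.918) and Ppp1r3e (0.912). Slc44a1 was nearest to Eftud2 (0.881), Ptprj (0.861) and Rhbdl1 (0.859).

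Around the 6 genes, 67 others of the pathway were listed in 7 groups, and 56 of them were tested. Of these, 3 differed among the pools: Lifr, Isl1 and Sv2c, which is 5.36% beside 1.31% of all genes. Against the rest, 9 were higher and 0 lower in PL, 2 were higher and 2 lower in IF, 1 was higher in GS, and none was called in TA or EDL. The 9 of PL are 16.1% of the tested list genes, beside 4.87% of all genes. The 4 of IF are 7.14% beside 1.1%, and the 1 of GS is 1.79% beside 0.126%. Without PL replicates 2 and 3, 0 of them were called in PL, and 10 genes of the whole table were. With scaling to total counts, 0 of the 56 were called in PL as well.

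Acetyl-CoA, the other substrate of Chat, comes in part from ATP-citrate lyase (Acly). Acly was lower in IF, at 834, 716.5 and 760.1 CPM, against 1056 to 2638 in the 12 other libraries. The IF libraries lay below all others (log2 fold change -1.26 ± 0.237, edgeR adjusted p = 0.0116). The call was lost when any 1 IF library was left out. Citrate synthase (Cs) was higher in PL, with 728, 1470 and 2423 CPM (log2 fold change 1.06 ± 0.266, edgeR adjusted p = 0.0268). It was -0.02 ± 0.333 without PL replicates 2 and 3. The other 8 of the 10 acetyl-CoA genes were not called in any pool. The median log2 fold change of the 10 in IF was -0.23, beside 0.02 over all tested genes.

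Among the 15 genes of choline phospholipid turnover, Pcyt1b (1.42 ± 0.352) and Pemt (4.56 ± 1.23) were called higher in PL on the log2 scale (edgeR, adjusted p = 0.0259 and 0.0423). Each rested on 1 library: Pcyt1b had 1063 CPM in PL replicate 3 and 222 and 246 in the other PL libraries. Pemt had 72.5 CPM in PL replicate 2 and 2.27 and 0.221 in the others. Of 9 further choline carriers, 4 could be tested and none was called. The lowest p was that of Slc44a2, with 116 ± 40.6 CPM in TA and 48.5 ± 14.0 to 75.1 ± 15.7 elsewhere (edgeR, adjusted p = 0.492). Slc22a3, an organic cation carrier, was at most 3.61 CPM in any pool mean.

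Of 6 genes that anchor cholinesterase or build the synaptic matrix, 4 were tested and none was called. Agrin (Agrn), which organises the neuromuscular junction, had 172, 389 and 346 CPM in PL against pool means of 142 to 167 elsewhere (edgeR, adjusted p = 0.0576 for PL). Lamb2 stayed at or below 5.21 CPM in all pool means. Of the 5 muscarinic receptors, 3 were tested and none was called. Chrm2 had 159.8 ± 40.6 CPM in EDL and 311 to 467 in the other pools (edgeR, adjusted p = 0.174 for EDL). Chrm5 reached 4.72 ± 3.31 CPM in IF and at most 0.650 in the other pools.

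Among 10 genes known to act on the cholinergic programme, 8 were tested and 4 were called in some comparison. Lifr, the receptor chain for leukaemia inhibitory factor, had 1471, 1268 and 1438 CPM in IF and 810.3, 543 and 1147 in PL. The other 9 libraries lay between 160.4 and 348, below both pools. The log2 fold change was 1.99 ± 0.227 in IF (edgeR, adjusted p = 8.78e-05) and 1.06 ± 0.238 in PL (edgeR, adjusted p = 0.0151). The call in IF held in all 15 fits that left out 1 library. In PL it was lost without PL replicate 3. Without PL replicates 2 and 3, which leaves 1 PL library, the value was 1.02 ± 0.305. The LIM homeodomain factor Isl1, required for motor neuron development, had 51.4 to 94.1 CPM in GS and 76.1 to 115 in IF. It had no read in TA or PL and 0.189 ± 0.327 CPM in EDL. Isl1 was called in GS and IF (edgeR, adjusted p = 0.000371 and 5.15e-05). Rcor1 and Isl2 were called in PL (edgeR, adjusted p = 0.0132 and 0.0163), each through PL replicate 2, where Isl2 stood at 318 CPM and at 9.21 and 39.3 in the other PL libraries. Without PL replicates 2 and 3 the log2 fold change was 0.20 ± 1.06 for Rcor1 and -0.43 ± 1.25 for Isl2.

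Of 12 genes of the release machinery, Sv2c, Syt2 and Vamp2 were higher in PL and Sv2c was lower in IF. Sv2c, a synaptic vesicle glycoprotein, had 807, 1234 and 1240 CPM in PL and 381, 248 and 363 in IF, with the 9 remaining libraries at 475 to 849. Its log2 fold change was 0.98 ± 0.216 in PL and -1.18 ± 0.251 in IF (edgeR, adjusted p = 0.0147 and 0.0249). The call of Sv2c in IF was lost without EDL replicate 2, without any 1 IF library and with total count scaling. The calcium sensor Syt2 changed in PL by 1.00 ± 0.250 and the vesicle SNARE protein Vamp2 by 1.07 ± 0.281 (edgeR, adjusted p = 0.0267 and 0.0339). Without PL replicates 2 and 3, 1 PL library was left. The values in PL were then 0.53 ± 0.309 for Sv2c, 0.26 ± 0.317 for Syt2 and 0.39 ± 0.392 for Vamp2. The median of the 12 genes was 0.35 in PL and -0.57 in IF, beside -0.06 and 0.02 over all tested genes.

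Between pairs of pools the share of all tested genes called gives the scale for the 2 calls among the 6 members. It was 0.9% for PL against IF, where Chat and Bche passed. It was 0.628% for TA against IF, 0.23% for TA against PL, 0.202% for EDL against IF, 0.126% for GS against IF and 0.119% for PL against GS. The lowest shares were 0.0907% for TA against EDL, 0.0697% for EDL against GS, 0.0628% for TA against GS and 0.0488% for EDL against PL. None of the 6 genes passed in these 9 pairs. Some did under alternatives. With DESeq2, Chat passed for PL against TA, EDL and GS (adjusted p = 0.0237, 0.0043 and 0.0312). Bche passed there for TA and EDL against PL and for TA and GS against IF, and Slc5a7 for EDL against PL. Without the filter, Chat, Slc5a7 and Bche passed for EDL against PL, and with voom Bche passed for TA against IF. Without PL replicate 1, Chat and Bche passed for PL against TA, EDL and GS. Slc5a7 passed there for PL against EDL, and Prima1 for PL against TA and EDL. With only the 2 pools of a pair fitted, Slc5a7 passed for TA against IF, and Bche for EDL and for GS against IF (edgeR, adjusted p = 0.0421, 0.0377 and 0.00434). Without PL replicates 2 and 3, Slc5a7 and Bche passed for TA against IF and Bche for GS against IF (edgeR, adjusted p = 0.0345, 0.0194 and 0.0301). The authors' deposited tables of genes that differed between pools, 16 lists with 541 entries, held 0 of the 6 genes. Beside the 36814 genes of the whole table these lists are short, so their lack of the 6 genes is no result about them.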

How the data were processed

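RNA of 15 motor neuron libraries was read, 3 for each of 5 pools. Per the submitters' processing notes, reads were aligned with Bowtie 0.12.9 to mm9 and DESeq was used; for the gene counter, the program is not given in the sources used here. Library totals ran from 4417114 to 8488368 counts. The table deposited by the authors holds unnormalized counts for each gene beside RPKM values, with p-values and fold ratios in their lists of differing genes. Of 36814 genes, 4 with count cells below 0 (16 cells, no reason given) were left out of the fit, and 16357 had no read. Per the labels the libraries are biological replicates, but nothing ties them to particular animals, so p-values measure the spread between pooled libraries.

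The filterByExpr rule of edgeR kept 14340 genes, all 6 members among them. Counts were fitted with edgeR 4.0.16 in R 4.3.3 (TMM scaling, quasi-likelihood F-test, 1 coefficient per pool, all 15 libraries), with Benjamini-Hochberg adjustment over all tested genes of 1 comparison and a threshold of 0.05. A pool was set against the mean of the other 4 coefficients, and the pools were compared in pairs. The script was tested on simulated data. Correlations used log2(CPM + 1) and 100000 permutations. The members and the gene lists were chosen with earlier results of these data known, so the lists are described by counts and medians. Genes named are the 6 members, list genes called for any difference or for a pool against the rest (up to 6 a list, otherwise the 2 with the lowest p), and the 3 genes nearest in pattern to each member, without clone names. Alternatives were other scalings (RLE, upper quartile, total count), no filter, DESeq2 1.42.0, limma voom 3.58.1, a replicate block, each library left out, PL replicates 2 and 3 left out, and only the 2 pools of a pair.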

Additional observations from a re-analysis of the deposited data

How the results depend on the processing

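Fold changes were followed under the alternatives for Chat and Bche in PL, in IF and between PL and IF, and for Slc5a7 in PL. None of these changed direction, while those of Isl2 (-0.43) and Cs (-0.02) in PL did without PL replicates 2 and 3. The fold changes of Slc44a1, Ache and Prima1 were not followed in this way. The count of members called among the 5 pools (2) was 1 with upper quartile scaling, total count scaling, limma voom, the replicate block, or without PL replicates 2 and 3. It was 3 without the filter and with DESeq2, where Slc5a7 also passed (0.00503 and 0.0243), and ran from 0 to 3 when each library was left out. Calls against the other 4 pools (3) rose to 4 with RLE scaling, without the filter and with DESeq2, where Slc5a7 in PL was added. They fell with upper quartile scaling, total count scaling and the replicate block, where Bche in PL was lost. They were fewest without PL replicates 2 and 3, and ran from 1 to 5 when each library was left out. Calls in pairs (2) were 1 with total count scaling and with the replicate block, 6 without the filter and 11 with DESeq2, and ran from 0 (without any 1 IF library) to 13 (without PL replicate 1). Correlations that passed (5) were 0 on the authors' log2 RPKM, 1 centred on pool means, 2 without the 2 farthest libraries and 0 without PL replicates 2 and 3. The cause of these changes was not tested. Chat in PL kept its call in all 15 fits without 1 library (adjusted p 0.000766 to 0.0117) and under every other setting but the loss of PL replicates 2 and 3. That loss leaves 1 PL library, too few to weigh a call. Bche in IF kept its call in 13 of 15 such fits and under all 8 other settings (5.45e-06 to 0.0157). Bche in PL lost it with upper quartile scaling (0.0512), total count scaling (0.0834), the replicate block (0.112) and in 10 of 15 fits without 1 library. Between PL and IF, Chat lost its call with total count scaling (0.118) and with only those 2 pools fitted (0.218). Bche lost it with only 2 pools (0.223) and with the replicate block (0.0504). Both lost it without PL replicates 2 and 3 and without any 1 IF library. Slc5a7 in PL passed with RLE scaling (0.0434), without the filter (0.0261) and with DESeq2 (0.0472).

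Over all genes, 188 were called among the pools in edgeR, 106 with total count scaling, 95 with the replicate block, 1425 without the filter and 1175 with DESeq2. In PL 698 were called, 350 with upper quartile scaling, 147 with total counts, 1485 without the filter, 1717 with DESeq2, 170 with voom, 143 with the block and 10 without PL replicates 2 and 3. In IF 158 were called, 514 without the filter, 257 with DESeq2, 278 with voom and 96 with the block. With each library left out, the counts ran from 66 (without IF replicate 2) to 1211 among the pools, from 360 (without IF replicate 2) to 3210 in PL and from 31 (without IF replicate 3) to 333 in IF, each highest without PL replicate 1. Total count scaling moved the median of all genes by -0.31 in PL and 0.30 in IF (log2), and the share of higher calls in IF from 63.9% to 78.0%. That share was 37.4% with DESeq2 in IF, and in PL it was 92.6% in edgeR, 58.4% with DESeq2, 52.9% with voom and 50.1% without PL replicate 1. No pairing by replicate number was seen: correlations of deviations ran from -0.06 to 0.11 for the same number and from -0.07 to 0.06 for different numbers. Libraries of different pools may still share animals, which the labels do not say. With 3 pooled libraries a pool, Prima1 and Bche near 0 reads in PL limit what could be detected.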

Other observations

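The spread of the members within a pool differed by gene. In IF, the SD of log2(CPM + 1) over 3 libraries was 0.04 for Chat, 0.03 for Slc5a7, 0.06 for Ache and 0.11 for Slc44a1, beside a median of 0.29 over all 14340 tested genes. Only 2.28%, 1.01%, 4.50% and 12.1% of tested genes had a smaller spread there. Bche with 0.47 and Prima1 with 0.55 lay above the median, and 74.1% and 81.2% of genes had a smaller spread. In PL the median over all genes was 1.30, and the same genes had 0.58, 0.52, 1.36 and 1.48. Slc5a7 was also even in EDL, with an SD of 0.06 against a median of 0.60 over all genes. Bche and Prima1, which had few reads, spread more than most genes in TA, with 1.51 and 2.12 against a median of 0.83.

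Chat per Ache, both per kb, was 1.19, 1.24 and 1.24 in IF and 17.7 in PL replicate 3, the library with the lowest Ache level. Ache exceeded Chat per kb in 1 library, EDL replicate 1, where the ratio was 0.711.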
